A study of Rattus norvegicus with 9 samples.

Results

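Apolipoproteins are the protein part of plasma lipoproteins, the particles that carry fat and cholesterol in blood, and the liver is a main source of most of them. The 10 genes described here are Apoa1, Apoa2, Apoa4, Apoa5, Apob, Apoc1, Apoc2, Apoc3, Apoe and Apoh, and all probe sets that the array's annotation gives to one of these symbols were taken. That gave 11 probe sets for 9 of the 10 genes, out of 10412 genes with a probe set of their own, and Apoc2 was not analysed here. Apob and Apoe each had 2 probe sets and the other 7 genes had 1. Expression was measured in total RNA of whole rat liver with 1 oligonucleotide array per sample, 9 in all, and the 3 groups, titled Burn-CLP, Sham-CLP and Sham-Sham, had 3 arrays each. By these titles Burn-CLP received a burn and CLP, Sham-CLP a sham procedure and CLP, and Sham-Sham was the control with sham procedures only. The labels do not spell out CLP, which in rodent work stands for cecal ligation and puncture, a model of abdominal infection, and they give no strain, age, sex or time. Whether each array stands for an animal of its own is not stated, so p-values measure only how far these samples spread, and part of that may be technical.

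Apoa1 and Apoa2 are the main proteins of high density lipoprotein (HDL), which takes part in returning cholesterol to the liver. Apob is the large structural protein of very low and low density lipoprotein, and Apoe is a ligand through which receptors remove lipoprotein remnants. Apoc3 slows and Apoa5 promotes the clearance of triglyceride-rich particles by lipoprotein lipase, and Apoc1 restrains lipid transfer and uptake. Apoa4 is a lipid-binding protein made mainly by the intestine and, in rodents, also by the liver, while Apoh (beta-2-glycoprotein I) binds phospholipids. In the RefSeq annotation of GRCr8, Apoa1, Apoc3, Apoa4 and Apoa5 follow each other on chromosome 8 with 0 protein-coding genes between neighbours, and Apoc2, Apoc4, Apoc1 and Apoe do so on chromosome 1.

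None of the apolipoprotein genes passed the test in any comparison. Of the 10 probe sets tested, 0 passed for Burn-CLP against Sham-Sham, where 0.746% of all 13535 probe sets passed, and 2 had an unadjusted p under 0.05, against 19.9% of all. For Sham-CLP against Sham-Sham 0 of the 10 passed, against 0.0591% of all, and 2 had an unadjusted p under 0.05, against 11.7%. For Burn-CLP against Sham-CLP 0 passed, against 0.0148% of all, and 1 had an unadjusted p under 0.05, against 9.09%. The test was limma's moderated test on log2 quantile-normalized signal with Benjamini-Hochberg adjustment over all probe sets, and a probe set passed with an adjusted p under 0.05. In limma's F test over the 3 groups 0 of the 10 passed, against 0.148% of all probe sets, with the smallest adjusted p for Apoa4 (0.268) and Apoa2 (0.312). Leaving aside the dim Apob probe set, the 95% confidence intervals of the fold changes reached down to 0.438-fold (Apoa2, Burn-CLP against Sham-CLP) and up to 1.82-fold (Apoa5, the same comparison). The intervals are not adjusted for the number of probe sets, and those of Apoa4, Apoa2 and Apoa1 exclude a fold change of 1 in some comparisons.

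Deposited array medians lay between 205 and 268.1, and Sham-Sham 1 was the array least like the rest. On log2 signal it correlated with the other arrays at 0.863 on average, where each of the other 8 arrays reached 0.915 to 0.932. Most apolipoprotein probe sets lay near the top of the intensity range, where the scaling of the arrays matters. The deposited signal that 1 in 1000 probe sets exceeded was 23296 to 25929 in Burn-CLP, 26818 to 30578 in Sham-CLP and 23618 to 24149 in Sham-Sham, so the bright end of all 3 Sham-CLP arrays lay above that of the other 6. Quantile normalization gives each array the same distribution, and at this end the normalized signal follows the rank on the array. With the deposited scaling the median log2 change over all probe sets tested was -0.08 for Sham-CLP against Sham-Sham and 0.11 for Burn-CLP against Sham-CLP. Under that scaling too 0 of the 10 passed in each comparison, against 0.680% of all probe sets for Burn-CLP against Sham-Sham, 0.0296% for Sham-CLP against Sham-Sham and 0.00739% for Burn-CLP against Sham-CLP. Without the dim Apob probe set, the unadjusted intervals then reached 0.371-fold (Apoa2, Burn-CLP against Sham-CLP) and 2.06-fold (Apoa1, Sham-CLP against Sham-Sham). For Burn-CLP against Sham-CLP those of Apoa1, Apoa2, Apoc3 and Apoe excluded a fold change of 1.

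Apoa1 read 22213, 18017 and 22433 normalized signal in Burn-CLP liver, 22877, 24136 and 23816 in Sham-CLP liver and 18967, 19184 and 15508 in Sham-Sham liver. All 3 Sham-CLP arrays lay above all Sham-Sham and all Burn-CLP arrays, and Burn-CLP 2 lay among the Sham-Sham arrays. The log2 change was 0.41 ± 0.17 (SE, n = 3 per group, limma adjusted p = 0.405) for Sham-CLP against Sham-Sham, a fold change of 1.33 with an interval of 1.02 to 1.72. It was 0.22 ± 0.17 (adjusted p = 0.479) for Burn-CLP against Sham-Sham and -0.18 ± 0.17 (adjusted p = 0.808) for Burn-CLP against Sham-CLP. With the deposited scaling the Sham-CLP difference from Sham-Sham was 0.68 ± 0.16 (adjusted p = 0.199), on signals of 26885, 27125 and 25467 in Sham-CLP and 16811, 18183 and 14800 in Sham-Sham. Burn-CLP against Sham-CLP was then -0.44 ± 0.16 (adjusted p = 0.368).

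Apoa2 read 14641, 8332 and 16603 in Burn-CLP, 19979, 19809 and 19645 in Sham-CLP and 18686, 18525 and 18686 in Sham-Sham. The Burn-CLP arrays were the lowest 3 of the 9, and Burn-CLP 2 lay far below the other Burn-CLP arrays. Mean signals were 13192 ± 4322 in Burn-CLP, 19811 ± 167 in Sham-CLP and 18632 ± 93.0 in Sham-Sham (SD, n = 3 each). The log2 change was -0.56 ± 0.24 (limma adjusted p = 0.243) for Burn-CLP against Sham-Sham and -0.65 ± 0.24 (adjusted p = 0.474) for Burn-CLP against Sham-CLP. Without Burn-CLP 2 these values were -0.26 and -0.35, so that array carried more of the difference than the other arrays did. The value for Sham-CLP against Sham-Sham was 0.09 ± 0.24 (adjusted p = 0.904).

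Apoa4 had the smallest p over the 3 groups among the members. It read 2804, 2049 and 2723 in Burn-CLP, 2512, 2365 and 2505 in Sham-CLP and 4872, 3425 and 3119 in Sham-Sham. Each array of both CLP groups lay below each Sham-Sham array, and Sham-Sham 1 was the highest of all. Apoa4 ranked between 784 and 1085 among the probe sets of the Burn-CLP arrays, between 886 and 938 on the Sham-CLP arrays and between 431 and 705 on the Sham-Sham arrays, counted from the brightest. The log2 change was -0.58 ± 0.21 (n = 3 per group, limma adjusted p = 0.186) for Burn-CLP against Sham-Sham, a fold change of 0.670 with an interval of 0.482 to 0.931. For Sham-CLP against Sham-Sham it was -0.60 ± 0.21 (adjusted p = 0.355), or 0.659-fold (0.474 to 0.915). These comparisons share the Sham-Sham arrays. Without Sham-Sham 1 the values were -0.39 for Burn-CLP and -0.41 for Sham-CLP. Burn-CLP and Sham-CLP differed by 0.02 ± 0.21 (adjusted p = 0.987), with an interval of 0.732 to 1.41-fold.

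Apoa5, the next gene beside Apoa4 on the chromosome, read 16603, 22041 and 15976 in Burn-CLP, 11394, 13562 and 16161 in Sham-CLP and 13196, 14436 and 16497 in Sham-Sham. The groups overlapped in every comparison, and Burn-CLP 2, the array with the lowest Apoa2 and Apoa4 signal, had the highest Apoa5 signal. The log2 change was 0.30 ± 0.20 (limma adjusted p = 0.434) for Burn-CLP against Sham-Sham, -0.11 ± 0.20 (adjusted p = 0.848) for Sham-CLP against Sham-Sham and 0.41 ± 0.20 (adjusted p = 0.587) for Burn-CLP against Sham-CLP. Without Burn-CLP 2 the first was 0.15 and the last was 0.26. With the deposited scaling the Sham-CLP value against Sham-Sham was 0.12, with the opposite sign.

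The windows around the starts of Apoa4 and Apoa5 are printed because of the size of their log2 changes. These neighbours had the largest, in either direction, of the tested genes among the 6 members with a promoter in the RefSeq table of GRCr8. Each holds 250 bases before and 50 after the start, 5′ to 3′ on the + strand, at chr8:55435529-55435828 for Apoa4 and at chr8:55457621-55457920 for Apoa5, the first of the starts listed for that gene. The single capital is the first base of the transcript, and longer capitals are matches to a motif.
Apoa4: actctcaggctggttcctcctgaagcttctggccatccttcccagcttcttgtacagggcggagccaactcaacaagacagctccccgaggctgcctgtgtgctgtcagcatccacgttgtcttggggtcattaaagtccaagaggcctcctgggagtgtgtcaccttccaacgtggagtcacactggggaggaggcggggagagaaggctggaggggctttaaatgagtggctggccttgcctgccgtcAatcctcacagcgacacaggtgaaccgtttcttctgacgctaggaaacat
Apoa5: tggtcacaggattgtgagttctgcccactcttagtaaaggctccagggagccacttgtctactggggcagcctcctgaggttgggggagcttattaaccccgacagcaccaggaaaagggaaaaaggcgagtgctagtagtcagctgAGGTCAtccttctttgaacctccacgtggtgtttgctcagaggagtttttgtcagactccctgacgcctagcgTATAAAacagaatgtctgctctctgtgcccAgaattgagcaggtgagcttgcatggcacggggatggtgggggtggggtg
Searched on both strands were AGGTCA, the half-site of many nuclear receptors, CAAAGT, the core of the hepatocyte nuclear factor 4 motif, and TATAAA, the TATA box. The Apoa5 window held AGGTCA, which begins 103 bases before the start, and TATAAA, which begins 30 bases before it, and the Apoa4 window held none of these letters. AGGTCA was found in 15.7%, CAAAGT in 14.6% and TATAAA in 14.3% of 27457 promoter windows of the same length, 1 per gene. Among the 6 member windows, 1 held AGGTCA, 1 held CAAAGT and 2 held TATAAA.

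**Figure D1:**
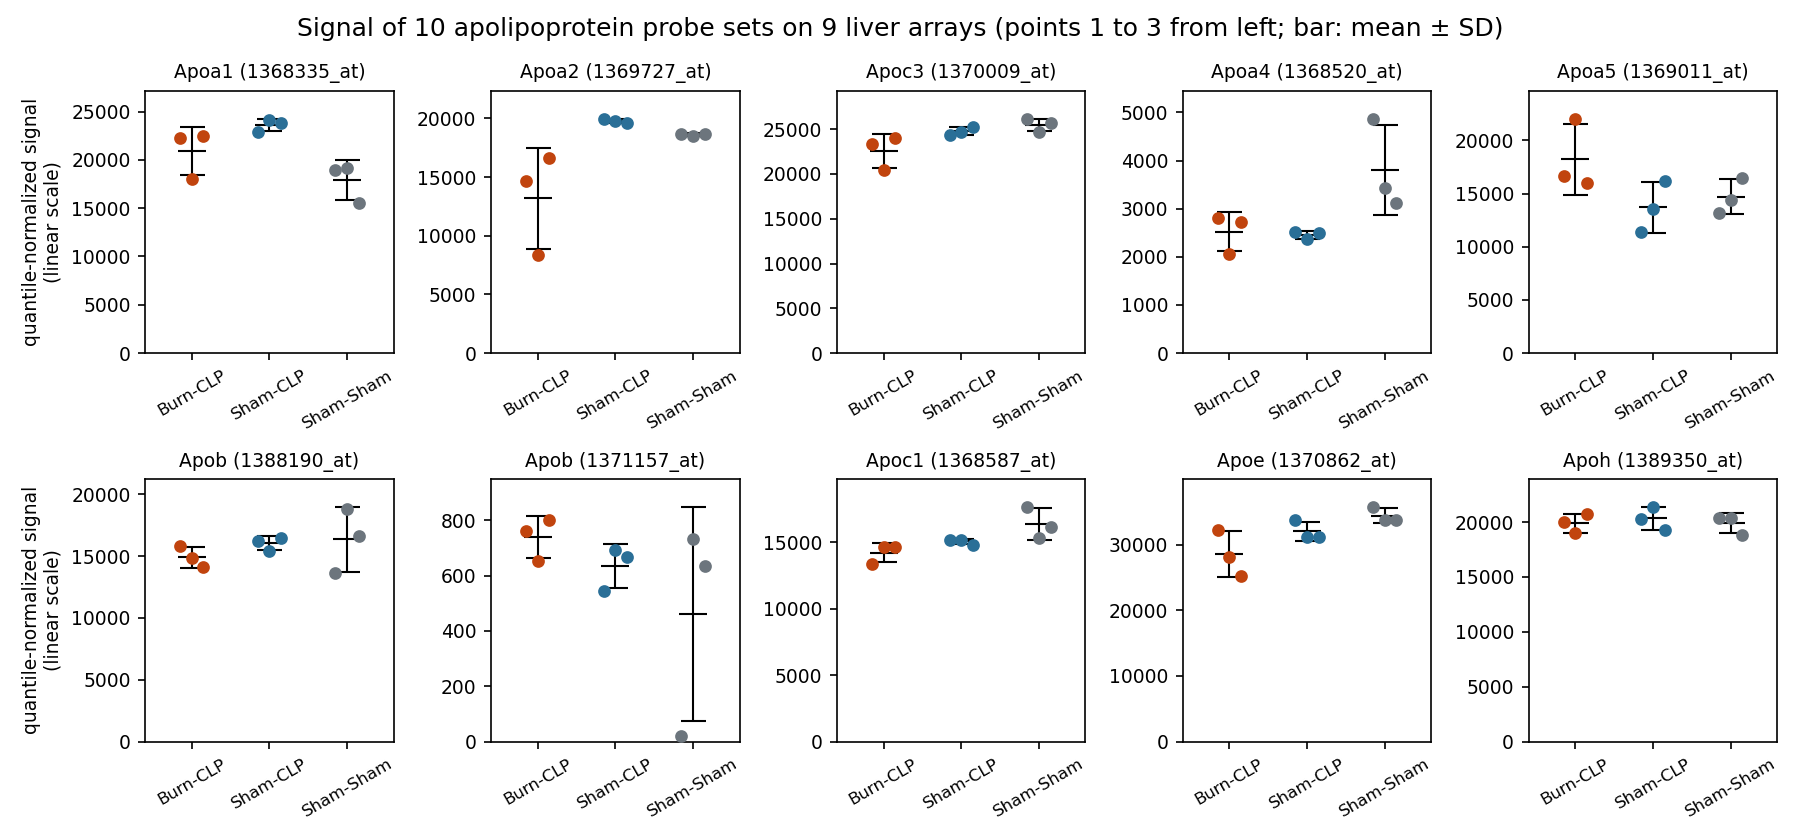
Quantile-normalized signal (linear scale, from 0) of the 10 tested apolipoprotein probe sets on the 9 arrays, with Burn-CLP left, Sham-CLP in the middle and Sham-Sham right; points are arrays and bars are means ± SD (n = 3). Apoa4 lies between 2049 and 2804 in both CLP groups and between 3119 and 4872 in Sham-Sham, and Apoa2 is low on Burn-CLP 2 (8332).

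Apoc3 read 23308, 20410 and 24006 in Burn-CLP, 24394, 24735 and 25275 in Sham-CLP and 26090, 24735 and 25648 in Sham-Sham. Burn-CLP held the lowest 3 values, and the other groups overlapped. The log2 change was -0.18 ± 0.15 (limma adjusted p = 0.522) for Burn-CLP against Sham-Sham, -0.04 ± 0.15 (adjusted p = 0.934) for Sham-CLP against Sham-Sham and -0.14 ± 0.15 (adjusted p = 0.845) for Burn-CLP against Sham-CLP. With the deposited scaling the sign for Sham-CLP against Sham-Sham turned, at 0.22. Apoc1 read 13402, 14641 and 14641 in Burn-CLP, 15201, 15201 and 14817 in Sham-CLP and 17662, 15350 and 16161 in Sham-Sham. The 3 groups did not overlap for Apoc1, yet the steps between them were small, with a log2 change of -0.20 ± 0.15 (adjusted p = 0.466) for Burn-CLP against Sham-Sham, -0.12 ± 0.15 (adjusted p = 0.764) for Sham-CLP against Sham-Sham and -0.08 ± 0.15 (adjusted p = 0.920) for Burn-CLP against Sham-CLP. That order depended on the scaling, since the deposited signals put Sham-CLP highest for Apoc1, at 16653 ± 1310, against 13839 ± 1111 in Burn-CLP and 14950 ± 305 in Sham-Sham (SD, n = 3 each).

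Apoe was the brightest member and ranked between 4 and 18 on the Burn-CLP arrays, between 2 and 5 on the Sham-CLP arrays and at 1 or 2 on the Sham-Sham arrays. Its normalized signal was 32273, 28179 and 25275 in Burn-CLP, 33719, 31148 and 31148 in Sham-CLP and 35699, 33719 and 33719 in Sham-Sham. All Burn-CLP values lay below all Sham-Sham values, while Sham-CLP touched or overlapped both. The log2 change was -0.27 ± 0.16 (limma adjusted p = 0.360) for Burn-CLP against Sham-Sham, -0.10 ± 0.16 (adjusted p = 0.810) for Sham-CLP against Sham-Sham and -0.17 ± 0.16 (adjusted p = 0.813) for Burn-CLP against Sham-CLP. Burn-CLP against Sham-CLP was -0.49 ± 0.17 (adjusted p = 0.357) with the deposited scaling. Macrophages also make Apoe. The summed signal of 8 tested Kupffer cell and macrophage markers was 10986 to 15892 in Burn-CLP, 10202 to 12145 in Sham-CLP and 9233 to 10409 in Sham-Sham. These markers did not move alike. Mean signals in Burn-CLP, Sham-CLP and Sham-Sham were 4513, 3033 and 2918 for Cd14 and 1539, 894 and 779 for Csf1r. For Clec4f they were 1796, 1810 and 1716. The part of macrophages in the Apoe signal was not tested. In whole liver fewer cells of a type and less RNA per cell cannot be told apart. The other Apoe probe set, annotated to the same accession, read 2.7 to 35.4 deposited signal on the 9 arrays, below the floor of 64.3 throughout, and was not tested.

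Apob was measured at a bright and a dim probe set. The bright one read 15786, 14817 and 14099 in Burn-CLP, 16243, 15430 and 16497 in Sham-CLP and 13637, 18828 and 16603 in Sham-Sham. The Sham-Sham arrays alone spanned the values of all others, and the log2 change was -0.12 ± 0.17 (limma adjusted p = 0.712) for Burn-CLP against Sham-Sham, -0.01 ± 0.17 (adjusted p = 0.981) for Sham-CLP against Sham-Sham and -0.11 ± 0.17 (adjusted p = 0.910) for Burn-CLP against Sham-CLP. The dim one read 760, 654 and 801 in Burn-CLP, 545, 693 and 666 in Sham-CLP and 18.5, 731 and 633 in Sham-Sham, where Sham-Sham 1 lay below the floor. It had the largest values of all members, 1.25 ± 0.75 (adjusted p = 0.377) for Burn-CLP and 1.03 ± 0.75 (adjusted p = 0.598) for Sham-CLP, each against Sham-Sham. Without Sham-Sham 1 they were 0.11 and -0.11, so they rested on that array.

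Apoh had the narrowest range of the tested members. It read 19979, 18967 and 20703 in Burn-CLP, 20316, 21364 and 19319 in Sham-CLP and 20410, 20410 and 18828 in Sham-Sham, with all groups overlapping. Burn-CLP differed from Sham-Sham by 0.00 ± 0.15 on the log2 scale (limma adjusted p = 1.00), with an interval of 0.796 to 1.26-fold. Sham-CLP differed from Sham-Sham by 0.03 ± 0.15 (adjusted p = 0.946), with an interval of 0.813 to 1.29-fold.

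Taken by count, 5 of the 10 tested probe sets had all 3 Burn-CLP arrays below all 3 Sham-Sham arrays (Apoa2, Apoa4, Apoc1, Apoc3 and Apoe) and 0 had them above, against 10.5% and 11.0% of all probe sets. Under the deposited scaling 4 did (Apoa2, Apoa4, Apoc3 and Apoe), against 10.1% of all. Hepatocyte markers outside the family also separated in this comparison after quantile normalization. Ttr, Ambp and Ahsg lay below without overlap, and Hpx, Cps1, Ass1 and Tat lay above. For Sham-CLP against Sham-Sham, Apoa1 and Apoa2 lay above without overlap and Apoa4 and Apoc1 below, that is 2 of 10 each way, against 8.10% above and 8.65% below among all probe sets. For Burn-CLP against Sham-CLP 4 of 10 lay below (Apoa1, Apoa2, Apoc1 and Apoc3) and 0 above, against 9.22% and 9.61% of all. The median log2 change over the 9 genes, at the brightest probe set of each, was -0.18 for Burn-CLP against Sham-Sham, -0.04 for Sham-CLP against Sham-Sham and -0.11 for Burn-CLP against Sham-CLP, while the medians over all probe sets were 0.01, 0.00 and 0.02. The direction for Sham-CLP depended on the scaling. With the deposited scaling 9 of 10 probe sets were higher in Sham-CLP than in Sham-Sham, against 4 of 10 after quantile normalization. The share of all probe sets that were higher was not counted. The family's deposited median was 0.30 above that of all probe sets. This was not particular to the family, since the deposited median was 0.21 for 13 hepatocyte markers, beside 0.22 for the 9 genes. With the deposited scaling 4 of 10 lay above without overlap (Apoa1, Apoa2, Apoc3 and Apoh), against 7.14% of all, and 1, Apoa4, lay below, against 12.3%. For Burn-CLP against Sham-CLP the family's median stood at -0.42 relative to all probe sets under that scaling, and 7 of 10 lay below without overlap, against 7.58% of all. Under the deposited scaling, a fall in that comparison was not particular to the family. The deposited median was -0.21 for 13 hepatocyte markers, beside -0.31 for the 9 genes and 0.10 for all genes. After quantile normalization the medians in that comparison were 0.04 for the hepatocyte markers, -0.11 for the 9 genes and 0.02 for all genes. The deposited values for that comparison were -0.88 for Apoa2, -0.37 for Apoc3, -0.31 for the bright Apob probe set, -0.27 for Apoc1, -0.27 for Apoh and 0.24 for Apoa5.

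**Figure D2:**
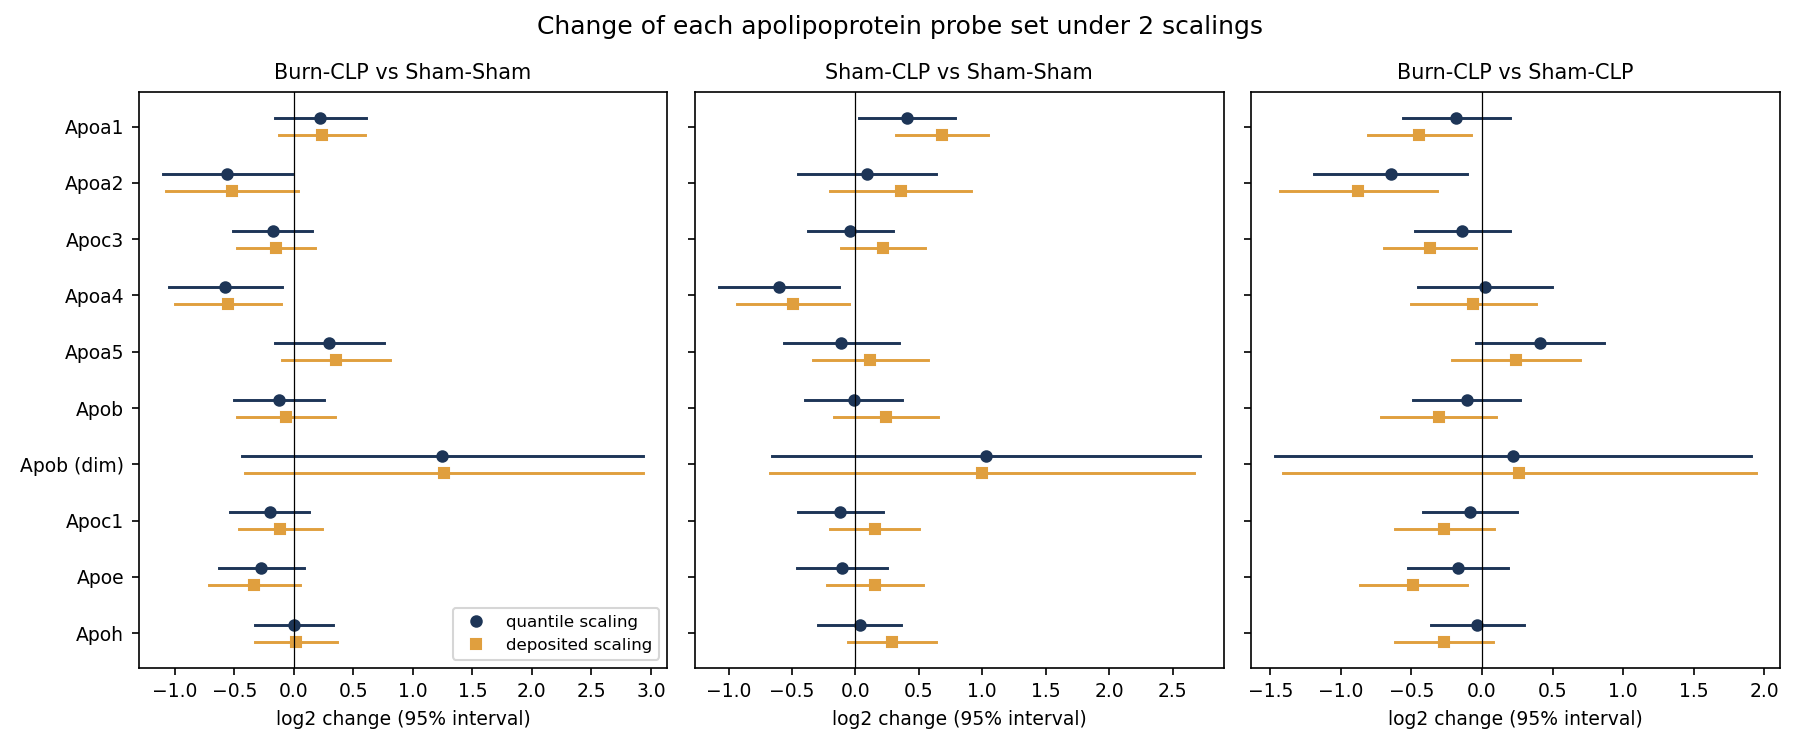
Log2 change of each tested apolipoprotein probe set in the 3 comparisons with its 95% confidence interval from limma, after quantile normalization (circles) and with the deposited scaling (squares); dim marks the Apob probe set of low signal. In Burn-CLP against Sham-Sham the pairs lie close together, while in Sham-CLP against Sham-Sham the squares lie to the right of the circles for all but the dim Apob probe set, for example 0.68 and 0.41 for Apoa1.

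The difference between a gene's deposited log2 signal and the median of the 9 genes on the same array is not moved by a constant factor. Array differences that depend on intensity, such as those at the bright end described above, can still move it. Apoa4 was dimmer, at ranks 431 to 1085, than the other genes, which ranked between 1 and 212. How far such differences enter the Apoa4 values was not tested. Relative to its Sham-Sham mean, Apoa4 stood at -0.32, -0.94 and -0.37 in Burn-CLP and at -0.94, -0.97 and -0.77 in Sham-CLP, against 0.31, -0.24 and -0.07 in Sham-Sham. Apoa4 was thus low against its own family on all 6 CLP arrays. Apoa1 stood at 0.35, 0.01 and 0.38 in Burn-CLP and 0.23, 0.28 and 0.32 in Sham-CLP, against 0.04, 0.02 and -0.06 in Sham-Sham. Burn-CLP 2 was the exception among the CLP arrays for Apoa1. Apoa5 stood at 0.29, 0.60 and 0.21 in Burn-CLP, above the -0.53, -0.31 and -0.01 of Sham-CLP, with -0.17, -0.12 and 0.29 in Sham-Sham. Apoa2 stood at -1.21 on Burn-CLP 2 and between -0.26 and 0.12 on the other 8 arrays. With each array centred on this median, a setting chosen after the data were seen, Apoa4 passed for Sham-CLP against Sham-Sham (-0.89 ± 0.23, limma adjusted p = 0.0397), when 14.0% of all probe sets passed and the median of all moved to -0.45. It did not pass for Burn-CLP against Sham-Sham (-0.54 ± 0.23, adjusted p = 0.249).

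**Figure D3:**
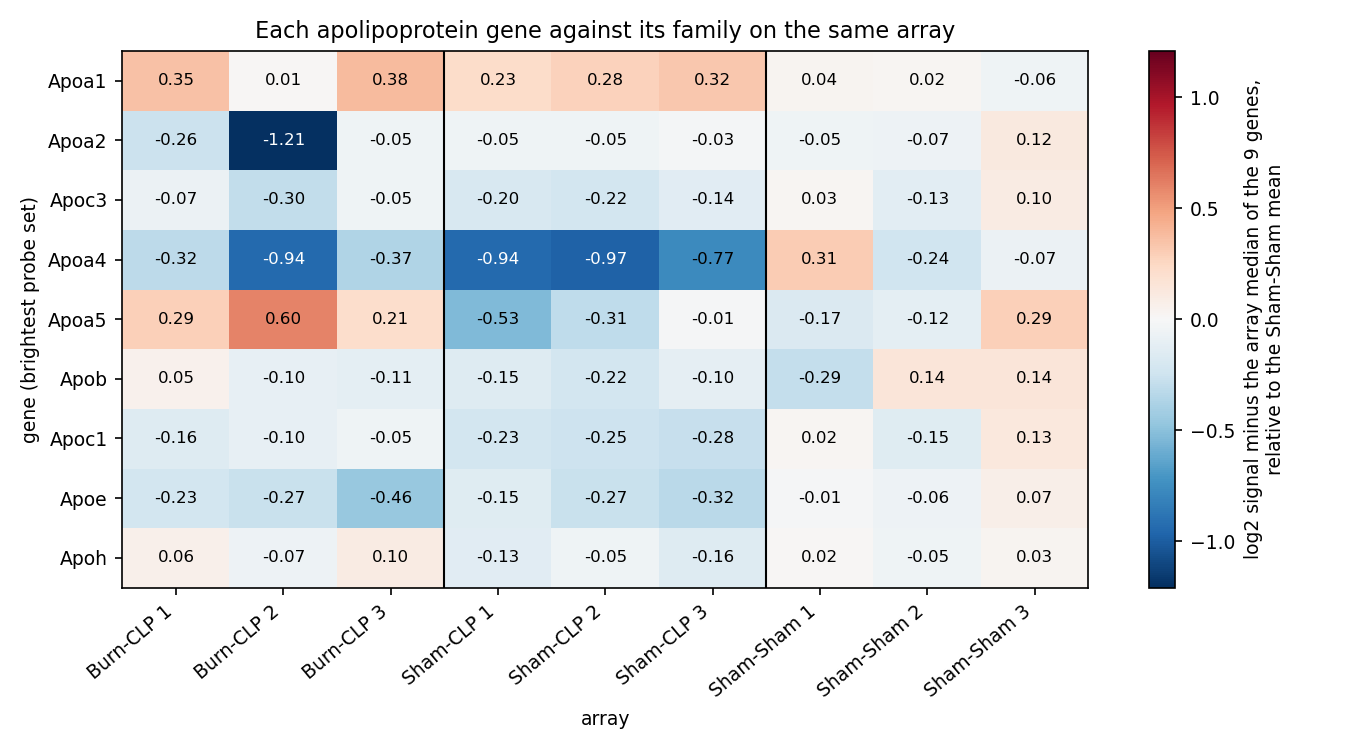
Log2 signal of each apolipoprotein gene (rows, brightest probe set) minus the median of the 9 genes on the same array (columns, Burn-CLP, Sham-CLP, then Sham-Sham), relative to the gene's Sham-Sham mean; red is above and blue below that mean. Apoa4 is negative on all 6 CLP arrays, from -0.32 to -0.97, and Apoa2 is at -1.21 on Burn-CLP 2.

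Genes that build, remodel, receive or regulate lipoproteins were read from lists, and the only 2 that passed were in the remodelling list. In the list of plasma lipoprotein remodelling, 10 of 16 genes were tested, 1 rose and 1 fell in Burn-CLP against Sham-Sham, against 0.418% of all genes in each direction. Lipc, the hepatic lipase that hydrolyses HDL and remnant lipids, read 1547, 1363 and 1962 in Burn-CLP, 2153, 3185 and 4545 in Sham-CLP and 4857, 4938 and 5126 in Sham-Sham. Burn-CLP lay below Sham-CLP and Sham-CLP below Sham-Sham, without overlap. Lipc fell 3.10-fold in Burn-CLP against Sham-Sham (-1.63 ± 0.27, limma adjusted p = 0.0352). For Sham-CLP against Sham-Sham it differed by -0.66 ± 0.27 (adjusted p = 0.394) and for Burn-CLP against Sham-CLP by -0.97 ± 0.27 (adjusted p = 0.359). The Lipc call was lost without Sham-Sham 1 (adjusted p = 0.0887), Sham-Sham 2 (0.0864), Sham-CLP 2 (0.0678), Burn-CLP 1 (0.0992) or Burn-CLP 2 (0.133), with values from -1.77 to -1.51 over the 9 arrays left out in turn.

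Pla2g2a, a secreted phospholipase A2 that acts on HDL in inflammation, read 2355, 3352 and 3968 in Burn-CLP, 1217, 1362 and 1422 in Sham-CLP and 142, 72.7 and 168 in Sham-Sham. It rose in both CLP groups against Sham-Sham, by 4.71 ± 0.32 in Burn-CLP (limma adjusted p = 0.000389) and by 3.47 ± 0.32 in Sham-CLP (adjusted p = 0.00398), with the groups far apart. In Sham-CLP against Sham-Sham it was the only gene of its list to pass, where 0.0642% of all genes rose and 0.0107% fell. In Burn-CLP against Sham-CLP, where 0.0214% of all genes rose, 0 genes of the list passed. The other 8 tested genes of the list did not pass in Burn-CLP against Sham-Sham and had values in both directions. Angptl4 and Angptl8, inhibitors of lipoprotein lipase action, differed by -1.33 ± 0.30 (adjusted p = 0.0715) and -1.95 ± 0.43 (adjusted p = 0.0693), and 2 of 3 Burn-CLP arrays lay at the floor for Angptl8. Pon1, the HDL-bound paraoxonase, differed by -0.60 ± 0.22 (adjusted p = 0.181). Angptl4, Angptl8 and Pon1 were each lower on all Burn-CLP arrays than on all Sham-Sham arrays. Abcg1, which exports cholesterol to HDL, differed by 0.65 ± 0.20 (adjusted p = 0.138), and Gpihbp1, which anchors lipoprotein lipase to capillary walls, by 0.71 ± 0.23 (adjusted p = 0.153), each higher on all Burn-CLP arrays than on all Sham-Sham arrays. Lpl, lipoprotein lipase itself, differed by 0.39 ± 0.28 (adjusted p = 0.466), Lcat, which esterifies HDL cholesterol with Apoa1 as its cofactor, by -0.15 ± 0.16 (adjusted p = 0.608) and Lmf1, a factor for lipase maturation, by -0.04 ± 0.21 (adjusted p = 0.929). These 8 genes were added after their values were seen, so that every tested gene of the list is given.

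In the list of lipoprotein assembly and secretion 0 of 11 tested genes passed in any of the 3 comparisons, with a median of -0.31 for Burn-CLP against Sham-Sham, -0.06 for Sham-CLP against Sham-Sham and -0.24 for Burn-CLP against Sham-CLP. Apobec1, the enzyme that edits Apob RNA to give the short form of the protein, read 137, 252 and 341 in Burn-CLP, 188, 195 and 344 in Sham-CLP and 123, 89.9 and 93.7 in Sham-Sham. Every CLP array lay above every Sham-Sham array, with a log2 difference of 1.16 ± 0.35 for Burn-CLP (limma adjusted p = 0.138) and 1.20 ± 0.35 for Sham-CLP (adjusted p = 0.307), each against the same Sham-Sham arrays. Surf4, a cargo receptor for secretion from the endoplasmic reticulum, differed by -0.65 ± 0.21 in Burn-CLP against Sham-Sham (adjusted p = 0.151). Sar1b, a GTPase of the transport vesicles that carry lipoprotein particles, differed by 0.55 ± 0.17 in Sham-CLP against Sham-Sham (adjusted p = 0.328). For Burn-CLP against Sham-CLP the smallest p-values belonged to P4hb, a subunit of the triglyceride transfer complex, at -0.37 ± 0.15 (adjusted p = 0.513), and A1cf, the Apobec1 cofactor, at -0.46 ± 0.19 (adjusted p = 0.529).

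Among lipoprotein receptors and uptake genes 0 of 12 tested passed in any comparison, with medians of -0.25 for Burn-CLP against Sham-Sham, -0.06 for Sham-CLP against Sham-Sham and -0.16 for Burn-CLP against Sham-CLP. Vldlr, a receptor for Apoe-bearing particles, read 68.7, 63.5 and 81.5 in Burn-CLP, 89.0, 104 and 140 in Sham-CLP and 253, 264 and 114 in Sham-Sham, with 1 Burn-CLP array at the floor. It was lower in Burn-CLP than in either other group without overlap, and the log2 change was -1.47 ± 0.32 against Sham-Sham (limma adjusted p = 0.0686). It was -0.85 ± 0.32 for Sham-CLP against Sham-Sham (adjusted p = 0.379) and for Burn-CLP against Sham-CLP -0.62 ± 0.32 (adjusted p = 0.609). Sdc1, a heparan sulfate proteoglycan that binds remnants, differed by -0.47 ± 0.20 in Burn-CLP against Sham-Sham (adjusted p = 0.235) and by -0.30 ± 0.20 in Sham-CLP against Sham-Sham (adjusted p = 0.561). Lrp1, a remnant receptor, differed by -0.33 ± 0.19 in Burn-CLP against Sham-CLP (adjusted p = 0.648).

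Of the transcription factors known to act on apolipoprotein genes 0 of 19 tested passed in any comparison, with medians of 0.04 for Burn-CLP against Sham-Sham, 0.17 for Sham-CLP against Sham-Sham and -0.18 for Burn-CLP against Sham-CLP. Nr1h4, the bile acid receptor FXR, read 531, 560 and 823 in Burn-CLP, 1408, 1223 and 1270 in Sham-CLP and 1201, 1106 and 1167 in Sham-Sham. Burn-CLP lay below both other groups, by -0.89 ± 0.20 against Sham-Sham (limma adjusted p = 0.0687) and by -1.05 ± 0.20 against Sham-CLP (adjusted p = 0.179). Cebpa, a liver C/EBP factor, differed by -0.85 ± 0.19 in Burn-CLP against Sham-CLP (adjusted p = 0.293). Foxa3, a forkhead factor of hepatocytes, differed by 0.58 ± 0.18 in Burn-CLP against Sham-Sham (adjusted p = 0.139) and by 0.81 ± 0.18 in Sham-CLP against Sham-Sham (adjusted p = 0.242). Nr0b2, the repressor SHP, differed by -1.39 ± 0.49 in Sham-CLP against Sham-Sham (adjusted p = 0.360). Hnf4a, named after its values were seen because it drives many apolipoprotein promoters, differed by 0.52 ± 0.41 for Burn-CLP against Sham-Sham (adjusted p = 0.502), with Sham-Sham 1 at 604 and the other 8 arrays between 1223 and 2122.

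The other apolipoprotein genes were few, with 5 of 11 tested and 0 passing in any comparison. Apoc4, which lies between Apoc2 and Apoc1 on the chromosome, read 7280, 7398 and 7676 in Burn-CLP, 8310, 7126 and 6407 in Sham-CLP and 5126, 5296 and 7126 in Sham-Sham. It lay above Sham-Sham on every Burn-CLP array, at 0.37 ± 0.19 (limma adjusted p = 0.303). Apom, which carries sphingosine-1-phosphate on HDL, differed by -0.38 ± 0.25 in Burn-CLP against Sham-CLP (adjusted p = 0.699), and Apod, a lipocalin found on HDL, by 0.09 ± 0.30 (adjusted p = 0.960), with 2 of 3 arrays at the floor in each group. Apol9a, of the apolipoprotein L family, was dim. It differed by -0.82 ± 0.22 for Burn-CLP (adjusted p = 0.108) and -0.80 ± 0.22 for Sham-CLP (adjusted p = 0.306), each against Sham-Sham, with 3 of 3 Burn-CLP and 2 of 3 Sham-CLP arrays at the floor.

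**Figure D4:**
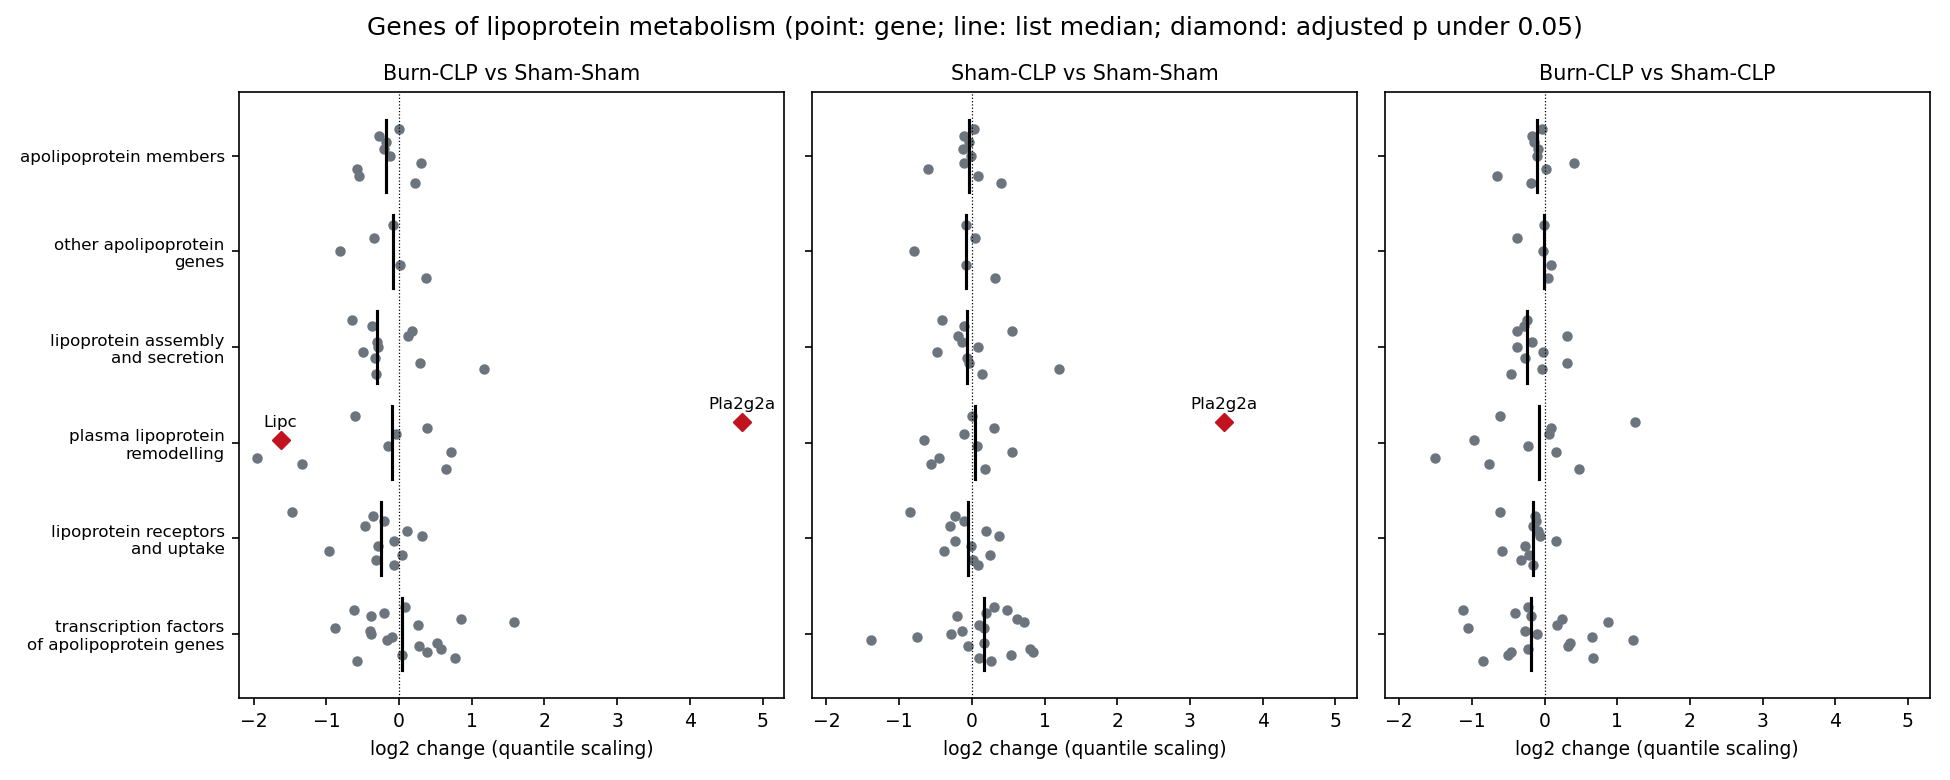
Log2 change after quantile normalization of each tested gene (points) in the list of apolipoprotein members and 5 lists of lipoprotein metabolism, in the 3 comparisons; black lines are list medians and diamonds are genes with a limma adjusted p under 0.05. Only Pla2g2a (4.71 and 3.47, against Sham-Sham) and Lipc (-1.63, Burn-CLP against Sham-Sham) passed.

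Of 13 tested hepatocyte markers 0 passed in any comparison, where at most 0.418% of all genes passed in each direction. Such comparisons between groups do not test the liver label. The summed signal of the hepatocyte markers was 295873 to 307428 in Burn-CLP, 281648 to 297030 in Sham-CLP and 288368 to 293801 in Sham-Sham. Their median log2 change was -0.02 for Burn-CLP against Sham-Sham, -0.05 for Sham-CLP against Sham-Sham and 0.04 for Burn-CLP against Sham-CLP. With the deposited scaling the hepatocyte median for Sham-CLP against Sham-Sham was 0.21, beside 0.22 for the apolipoprotein genes. Among markers of other cells 1 neutrophil gene of 5 tested passed (S100a9, 2.80 ± 0.40, limma adjusted p = 0.0239) and 1 stellate cell and fibroblast gene of 10 (Dcn, 1.48 ± 0.21, adjusted p = 0.0239), both higher in Burn-CLP than in Sham-Sham, where 0.418% of all genes passed as higher. The Dcn call held in 17 of 22 alternatives and was lost without Sham-Sham 2 (adjusted p = 0.0655) or Burn-CLP 2 (0.105). Dcn did not stand for its list, whose median log2 change over the 10 genes was -0.36 for Burn-CLP against Sham-Sham. The summed signal of that list was 5090 to 6731 in Burn-CLP, 4988 to 7107 in Sham-CLP and 6841 to 7760 in Sham-Sham. The S100a9 call held in 14 of 21 and was lost without Sham-Sham 1 (adjusted p = 0.0808), Sham-Sham 2 (0.0732) or Burn-CLP 2 (0.105). For S100a9 the floor applied on 2 Sham-Sham arrays. The summed signal of the neutrophil markers was 869 to 1818 in Burn-CLP, 629 to 994 in Sham-CLP and 613 to 781 in Sham-Sham. Mean signals in Burn-CLP and Sham-Sham were 562 and 45.4 for S100a9, 183 and 61.8 for S100a8 and 292 and 201 for Cybb. They were 121 and 120 for Cxcr2 and 215 and 242 for Ncf1, so the list did not rise as a whole. The part of neutrophils in the apolipoprotein values was not tested. Of the tested markers of macrophages (8), lymphocytes (9), endothelium (6), bile ducts (5) and red blood cells (4), 0 passed in any comparison.

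The genes whose signal over the 9 arrays was most like that of Apoa4 were Faim (Pearson r = 0.964, Spearman rho = 0.850), Kcnj6 (0.960 and 0.950) and Svs1 (0.959 and 0.933). Without Sham-Sham 1 and Burn-CLP 2, the arrays farthest from the Apoa4 median, r was 0.867, 0.941 and 0.877. For Apoa2 they were Gpr155 (r = 0.982, rho = 0.929), Pex5 (0.975 and 0.929) and Abca2 (0.974 and 0.946), and without Burn-CLP 2 and Burn-CLP 1 r was 0.911, 0.807 and 0.833. These were the highest of 9339 genes over arrays that share groups and scaling, and are given as a description only.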

How the data were processed

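The deposited table holds 15923 probe sets on 9 arrays, and by its range of values it gives intensity unlogged. No label or header tells how the authors made these numbers from the scans. Arrays had been scaled before deposit: trimmed by 2% at both ends, the mean was 500.1 or 500.2 on each. There is no read depth, and precision is limited by the number of arrays. Member genes and lists were chosen with earlier results of these data known.

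Arrays were quantile normalized. Signals under the 20th percentile (64.3) were raised to that floor before log2. Probe sets above the floor on 3 or more arrays were kept and 57 control probe sets left out, giving 13535 probe sets for 9339 genes. Symbols came from the platform annotation, updated through Entrez identifiers to RefSeq of GRCr8; 12783 probe sets had 1 symbol, 312 several and 2771 none. One limma 3.58.1 model (lmFit, eBayes; R 4.3.3) of the 9 arrays gave all comparisons, with Benjamini-Hochberg adjustment over all probe sets. List genes were read at their brightest probe set. The text names each list's genes that passed and, where fewer than 2 did, the 2 with the smallest p, and for the 2 members with the smallest F p the 3 genes most correlated with them. Members that share sequence may cross-hybridize. The model was tested on simulated data. Same-numbered arrays of different groups did not deviate together (correlations -0.03 to 0.08), so numbers were not taken as pairs. Alternatives covered scaling, floor, filter, prior variance, array weights, a replicate block, the groups in the model and leaving out arrays. No permutation test was run, since 3 against 3 cannot go below a two-sided exact p of 0.1.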

Additional observations from a re-analysis of the deposited data

How the results depend on the processing

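Under the 22 alternatives tried, 0 apolipoprotein probe sets passed in each comparison, with the exception of 1 (Apoa4, Sham-CLP against Sham-Sham, -0.89, limma adjusted p = 0.0397) when arrays were centred on the apolipoprotein median, a setting chosen after seeing the data. With the replicate block 0 passed, with smallest adjusted p-values of 0.178, 0.351 and 0.460 for Burn-CLP against Sham-Sham, Sham-CLP against Sham-Sham and Burn-CLP against Sham-CLP. Of 657 values of single probe sets under an alternative, 615 kept their direction and 42 reversed, 39 of them with a change of at most 0.15 to begin with. For Sham-CLP against Sham-Sham, the deposited scaling gave 0.15 for Apoc1, 0.12 for Apoa5, 0.22 for Apoc3, 0.16 for Apoe and 0.24 for Apob, and centring on array medians gave 0.36, 0.33, 0.43, 0.37 and 0.45 for the same genes. For Burn-CLP against Sham-CLP, these settings gave -0.062 and -0.22 for Apoa4. Centring on the apolipoprotein median gave -0.045 for Apoa2 and -0.11 for Apoh in Sham-CLP against Sham-Sham, and 0.15 for Apoc1, 0.046 for Apoc3, 0.11 for Apob and 0.15 for Apoh in Burn-CLP against Sham-CLP. Apoh in Burn-CLP against Sham-Sham was -0.012 with array weights, -0.0055 with only those groups and -0.034 without Sham-Sham 1 and 3. Leaving out those arrays also gave 0.0046 for Apoc3, -0.0020 for Apoh and -0.21 for the dim Apob probe set in Sham-CLP against Sham-Sham, and the last was -0.11 without Burn-CLP 2 and Sham-Sham 1, an alternative added after seeing the data. The cause of these reversals was not tested. With single arrays left out, Apoa4 in Burn-CLP against Sham-CLP ranged over -0.059 to 0.17, and Apoh over -0.071 to 0.0049. In Sham-CLP against Sham-Sham, Apoa5 ranged over -0.24 to 0.014, dim Apob over -0.11 to 1.65, bright Apob over -0.14 to 0.093 and Apoh over -0.0064 to 0.071, and Apoh in Burn-CLP against Sham-Sham over -0.037 to 0.033. Lipc kept its call for Burn-CLP against Sham-Sham in 11 of 22 alternatives, with values of -1.77 to -1.50. Over all probe sets, 101 passed for Burn-CLP against Sham-Sham, and 19 to 645 did with single arrays left out (645 without Sham-Sham 3), 5 without Burn-CLP 2 and Sham-Sham 1 and 317 with an intensity trend. For Sham-CLP against Sham-Sham 8 passed, against 4 to 347 with single arrays left out (347 without Sham-Sham 3), and for Burn-CLP against Sham-CLP 2 passed, against 0 to 36 (36 without Burn-CLP 3). Array weights gave 262, 69 and 47, the replicate block 59, 4 and 0, and centring on the apolipoprotein median 118, 1902 and 1638, in the same order of comparisons.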
